A study of Mus musculus with 2 samples.

Results

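The 38 genes described here are known targets of interferons, grouped by function. They were found by taking the probes of both arrays that are not controls and whose gene name, or an older symbol for it, is on the list. All 38 of them had a probe, among 31894 gene names left once outlier spots were removed, and all 38 were well above background on both arrays. The genes came from 49 probes, and 29 are placed among targets of type I interferon and 9 among targets of interferon gamma, the latter being the guanylate-binding and immunity-related GTPases, the immunoproteasome subunits and the TAP peptide transporter. Total RNA of mouse liver was measured on Agilent expression arrays in 1 colour, with Cy3 as the dye. One group is a wild-type C57BL/6 liver (1 array), and the other is a C57BL/6 liver with the genotype Alb-Cre;CAG-floxed neo-Snail (1 array). In Alb-Cre the albumin promoter, active in hepatocytes, drives the recombinase, so the transgene is directed to those cells while the RNA comes from the whole organ. The sources used here give no age, sex or diet, and no count of the mice behind each RNA sample. The comparison asks how the 2 livers differ in expression.

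Interferons are cytokines that cells release when they sense viral nucleic acid or other danger signals. Type I interferons act through the receptor chains IFNAR1 and IFNAR2 and a complex that holds STAT2 and IRF9 and binds the interferon-stimulated response element (ISRE) of target promoters. Interferon gamma, made by T and NK cells, acts through gamma-activated sites (GAS), and many targets answer to both. In liver, hepatocytes, Kupffer cells and endothelial cells all answer to interferon, and a low constant signal keeps many of these genes on without infection.

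The response elements themselves are shown first, since many genes of this list carry them. Promoter windows from RefSeq on GRCm38.p6, from 250 bases before to 50 after the gene start, were on hand for 30 of the 38 genes. The ISRE was searched on both strands as GAAA, any 2 bases, then GAAA, and the GAS as TTCNNNGAA, which reads alike on both strands. The ISRE letters were found in 15 of the 30 genes, against 3.99% of all 27025 genes with a window. The GAS letters were found in 9 of 30, against 9.55% of all genes. By class, the ISRE was in 11 of 23 type I targets and 4 of 7 interferon gamma targets. The stretches below lie wholly upstream of the gene start, are written on the strand of the gene, and have the ISRE letters in capitals. TTTC, 2 bases and TTTC are the same element read on the other strand. The first 3 are genes at least 2-fold lower in the library labelled Snail, and Ifit1 and Isg15 are lower by less than 2-fold. Oas1a had the highest difference of all 38 genes, and Gbp3 and Irgm1 are interferon gamma targets. Oasl1 and Zbp1 were also at least 2-fold lower but are not printed. Oasl1 has neither ISRE nor GAS letters in its window, and Zbp1 has no window.

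Bst2, chr8:71537567-71537622, minus strand: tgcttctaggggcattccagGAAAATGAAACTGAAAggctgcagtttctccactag
Rsad2, chr12:26456543-26456592, minus strand: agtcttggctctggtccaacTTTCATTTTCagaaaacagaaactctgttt
Ifit3, chr19:34583353-34583436, plus strand: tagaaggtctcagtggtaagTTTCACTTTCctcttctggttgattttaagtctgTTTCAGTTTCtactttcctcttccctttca
Ifit1, chr19:34640765-34640833, plus strand: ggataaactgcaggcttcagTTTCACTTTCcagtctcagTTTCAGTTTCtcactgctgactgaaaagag
Isg15, chr4:156200855-156200916, minus strand: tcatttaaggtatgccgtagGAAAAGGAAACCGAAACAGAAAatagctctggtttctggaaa
Oas1a, chr5:120907526-120907565, minus strand: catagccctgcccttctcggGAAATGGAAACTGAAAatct
Gbp3, chr3:142559979-142560034, plus strand: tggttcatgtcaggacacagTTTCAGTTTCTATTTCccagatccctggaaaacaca
Irgm1, chr11:48871421-48871470, minus strand: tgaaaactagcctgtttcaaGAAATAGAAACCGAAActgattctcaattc

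Isg15 holds 3 overlapping copies, Rsad2 1, and the other 6 genes hold 2 each. Bst2 and Oas1a both carry a pair of overlapping copies, yet Bst2 was among the genes with the lowest differences and Oas1a had the highest. Over the 30 genes the median log2 difference was -0.53 in the 15 with the ISRE letters, with 10 below 0, and -0.36 in the 15 without them, with 9 below 0. Of all genes measured on both arrays, 52.6% were below 0. The 2 sets cover much the same range, from -1.40 to 0.96 and from -1.55 to 0.85. These matches describe letters in a window and say nothing of binding.

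Of the spots that are not controls, 50.7% passed background in wild-type and 54.0% in the library labelled Snail. Levels below are log2 of the signal minus the 75th percentile of the array, and differences are the library labelled Snail minus wild-type. There is 1 array per genotype, so no difference has a replicate check and no p-value is given. Genes at least 2-fold apart are counted. Counts below or above 0 take a difference of any size, also a very small one. Probes printed repeatedly gave a median SD of the log2 difference between spots of 0.08, and 0.19 for signals under 100. Beside it, the error that the scanner software gives to each spot amounts to 0.20 to 0.29 for a gene with 1 probe. Neither includes a difference between animals. The tissue label was met by its markers: all 7 hepatocyte markers were well above background on both arrays, with Alb at signals of 226792 and 190813. Snai1, which encodes Snail, had signals of 23.2 and 22.3 and a log2 difference of -0.44. What part of Snai1 the transgene holds is not given in the sources used here, so that probe does not check the genotype, and the library is named by its label.

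The interferon response genes leaned to lower values in the library labelled Snail, with a wide spread. The list was chosen with earlier results of these data known, so its shares describe the list and do not test the lean. Of the 38 genes, 5 were at least 2-fold lower (13.2%), against 6.34% of all 15466 genes measured on both arrays. None was at least 2-fold higher, against 3.96% of all genes, although Oas1a came to 1.94-fold. In either direction 10.3% of all genes were that far apart. With normexp background correction 3 were at least 2-fold lower, where 3.70% of all genes were. With signals of at least 100 required on both arrays 34 of the genes were left and 7 were that low, against 5.84% of all genes. The counts became 5 lower and 1 higher with quantile normalization, where the higher gene was Lgals3bp at 1.01, and likewise with the values the authors tabulated, where it was Oas1a, just at the line. Differences were below 0 for 25 of the 38 (65.8%), against 52.6% of all genes. The median was -0.40, and that of all genes -0.03. With no filter on dim probes the medians were -0.44 and -0.47. That setting raises dim signals to a floor, and 43.5% of spots lay at it on both arrays with a difference of -0.47. Its median of all genes therefore reflects the floor and cannot show whether the lean holds. Among the 14 genes with signals over 1000 the median was -0.48, where that of all such genes was -0.10. Of targets outside the 38, 2 of 42 type I and 2 of 20 interferon gamma targets were at least 2-fold lower, against 6.34% of all genes. The low genes of the 38 are named next, followed by those that were as high or higher.

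**Figure D1:**
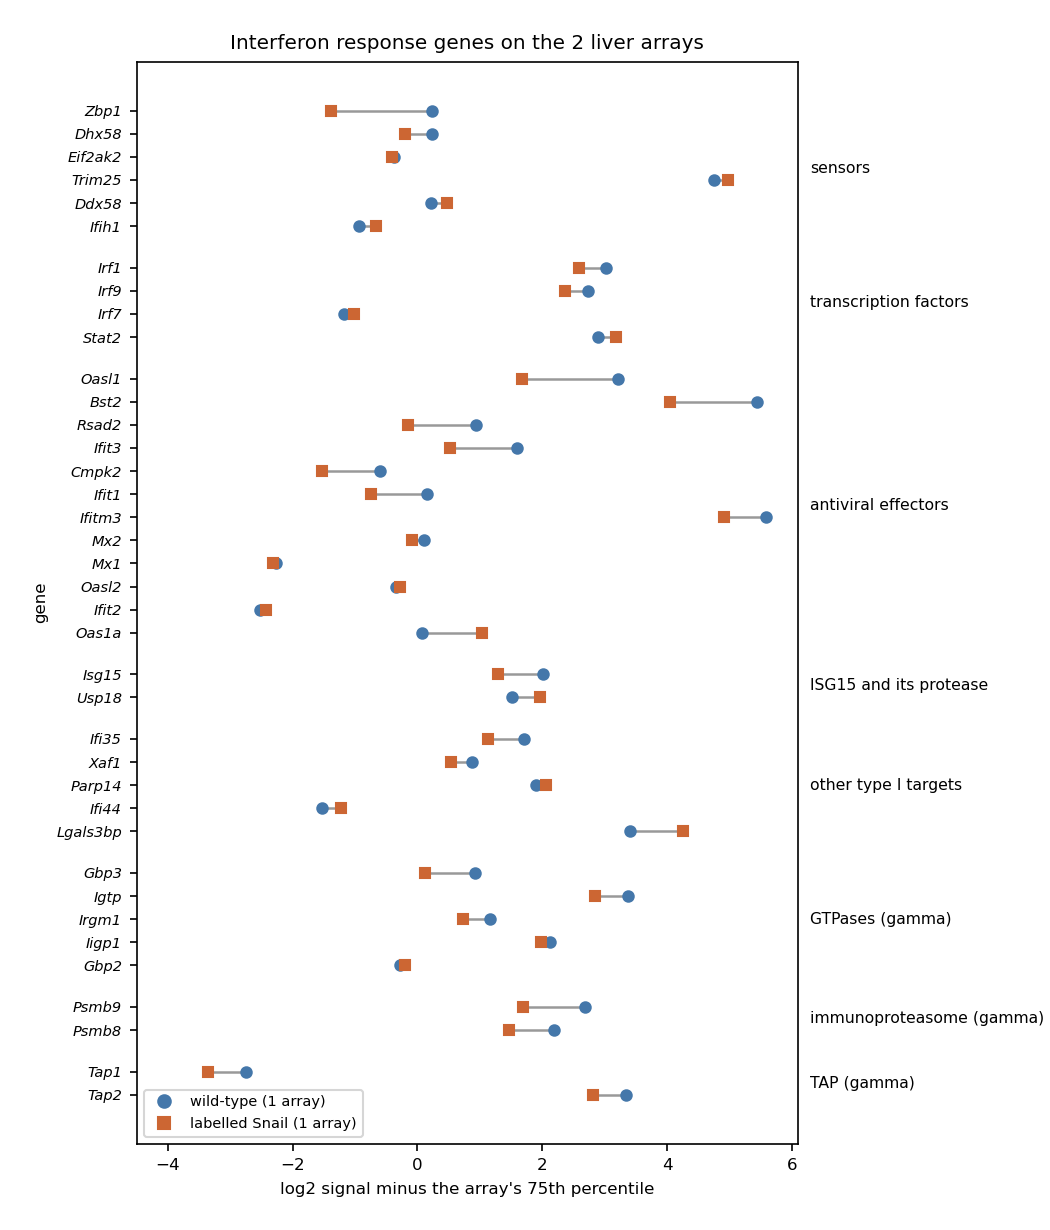
Level of each of the 38 genes on the wild-type array (circles) and on the array labelled Snail (squares), as log2 signal minus the 75th percentile of the array, grouped by function, 1 array each. The longest steps to the left are those of Zbp1, Oasl1 and Bst2, and the longest to the right those of Oas1a and Lgals3bp; positions of different genes along the axis depend on their probes and are not compared.

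Sensors of foreign nucleic acid did not move together. Zbp1, which senses Z-form nucleic acid and can set off necroptosis, went from a level of 0.24 to one of -1.39, a log2 difference of -1.63 or 3.10-fold lower. It was the lowest of the 38, and 2.42% of all genes had a lower value. Its probes, on chr2:173039307-173039366 and chr2:173032258-173032317 (mm9), gave -1.79 and -1.47, so both were lower by more than the error of 0.20 to 0.22 of a probe. The other 5 sensors were within 2-fold by their gene value, although both probes of Ifih1, given below, were past it in opposite directions. Dhx58, which encodes the RIG-I-like regulator LGP2, went from 0.24 to -0.20, a difference of -0.44. Ddx58, which encodes the RNA sensor RIG-I, went from 0.22 to 0.47, a difference of 0.25. Trim25, the ubiquitin ligase that activates RIG-I, was at 4.76 and 4.98, and Eif2ak2, the RNA-dependent kinase PKR, at -0.38 and -0.40. The difference of Ddx58 is above the error of its value, 0.15, and that of Trim25, 0.21, is close to its error of 0.20. That of Eif2ak2, -0.01, is far inside its error of 0.21.

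For Ifih1, which encodes the long-RNA sensor MDA5, the 2 probes went opposite ways and no single direction can be given. The brighter one, on chr2:62435507-62435566 (mm9), had signals of 894 (wild-type) and 501, which is -1.21 in log2. The dimmer one, on chr2:62434960-62435019, had signals of 16.7 and 71.7, a difference of 1.73 with an error of 0.36. Their mean of 0.26 is the value counted above, and under normexp background correction it was -0.35. The wild-type signal of the dimmer probe is close to 13.8, where detection on that array begins. Of the 9 genes with 2 usable probes, Ifih1 is the exception: in the other 8 both probes had the same sign and differed by at most 0.32.

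**Figure D2:**
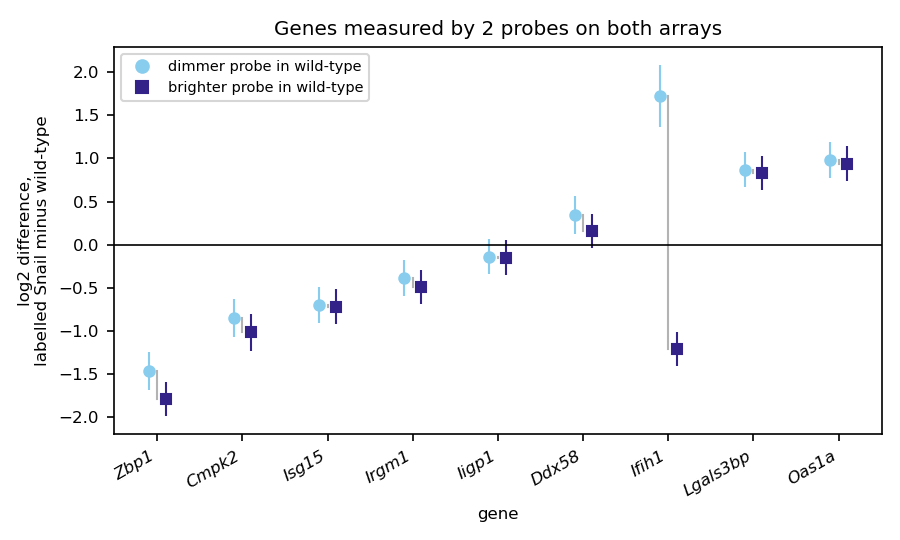
Log2 difference, labelled Snail minus wild-type, of each probe for the 9 genes with 2 probes well above background on both arrays; bars are the error given by the scanner software and hold no difference between animals. The probes of 8 genes lie within 0.32 of each other, and those of Ifih1 lie at 1.73 and -1.21.

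The transcription factors of the pathway were within 2-fold. Stat2, a subunit of the ISGF3 complex, had levels of 2.89 and 3.19, and Irf7, which amplifies interferon production, -1.17 and -1.02. Their differences of 0.29 and 0.15 were above 0. Irf9, the DNA-binding part of that complex, had levels of 2.73 and 2.37, and Irf1, which answers strongly to interferon gamma, 3.02 and 2.59. Both were lower, by differences of -0.36 and -0.43. For Irf1 another probe was below background on both arrays.

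The antiviral effectors held 4 of the 5 genes at least 2-fold lower. Of these 12 genes 9 were below 0, where 52.6% of all genes were, and the median was -0.79. Oasl1, an OAS-like protein without synthetase activity that restrains Irf7 translation, went from 3.22 to 1.67, a difference of -1.55 or 2.94-fold lower (probe on chr5:115387861-115387920, mm9). Bst2, which encodes the virus-tethering membrane protein tetherin, went from 5.45 to 4.05, a difference of -1.40 or 2.64-fold (chr8:74058603-74058662). Rsad2, which encodes viperin, an enzyme that makes a chain-terminating nucleotide, went from 0.94 to -0.15, a difference of -1.09 or 2.13-fold (chr12:27127859-27127918). Ifit3, an RNA-binding protein of the IFIT complex, went from 1.59 to 0.52, a difference of -1.07 or 2.10-fold (chr19:34663105-34663164). Rsad2 and Ifit3 lie close to the 2-fold line: with normexp they were at -0.88 and -0.90, while Oasl1 and Bst2 stayed past it in all 8 settings, at -1.40 and -1.19 at the nearest.

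Within families the effectors differed. Ifit1, which binds viral RNA caps, went from 0.15 to -0.74, a difference of -0.89 near that of Ifit3, whereas Ifit2 was at -2.52 and -2.43. Oasl2 lay at -0.34 and -0.28, a difference of 0.06 beside the -1.55 of its paralogue Oasl1. Oas1a, which makes the 2′-5′ oligoadenylate that activates RNase L, went from 0.08 to 1.03, a difference of 0.96 and the highest of the 38, with probes at 0.98 and 0.94. The Oas1, Ifit and Gbp families hold close copies, and cross-hybridization of their probes was not tested. Cmpk2, a nucleotide kinase whose gene neighbours Rsad2, went from -0.60 to -1.53, a difference of -0.93. Ifitm3, which blocks viral entry, is measured by a probe printed 10 times. Its level was 5.59 ± 0.04 (SD, n = 10 spots of 1 array) in wild-type and 4.91 ± 0.21 with the Snail label, and all 10 spots were lower. The dynamin-like GTPase genes Mx1 and Mx2 showed little difference, at -0.04 and -0.19; C57BL/6 mice are known to carry a defective Mx1.

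Isg15 and the enzyme that removes it went in opposite directions. Isg15, a ubiquitin-like protein that is attached to others on interferon treatment, went from 2.01 to 1.29, a difference of -0.71, with its probes at -0.72 and -0.70. Usp18, the ISG15 protease and a brake on the type I receptor, went from 1.52 to 1.97, a difference of 0.45. Neither was 2-fold apart. Of the 5 remaining type I targets Lgals3bp, a secreted glycoprotein that binds galectins, was highest. It went from 3.40 to 4.25, a difference of 0.85 or 1.81-fold higher, with probes at 0.83 and 0.87. Ifi44 and the ADP-ribosyltransferase Parp14 were at 0.29 and 0.16, and Ifi35 at -0.58. Xaf1, a pro-apoptotic binding partner of XIAP, was at -0.33 by the probe seen on both arrays, while its other probe passed background in wild-type liver alone, with signals of 22.7 and 5.97.

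None of the 9 interferon gamma targets was at least 2-fold apart, where 10.3% of all genes were. Of them 8 were below 0, where 52.6% of all genes were. The median was -0.53, and values ran from -0.99 to 0.07. Psmb9, a catalytic subunit that replaces its standard counterpart in the immunoproteasome, went from 2.68 to 1.69, a difference of -0.99 that falls just short of 2-fold. Psmb8, another such subunit, went from 2.19 to 1.47, a difference of -0.71. Tap1 and Tap2 form the pump that carries peptides into the endoplasmic reticulum for MHC class I. Tap2 went from 3.35 to 2.82, a difference of -0.53. The Tap1 probe was printed 10 times and was dim, with median signals of 34.7 (wild-type) and 30.1. The scaled levels of Tap1 were -2.74 ± 0.21 and -3.35 ± 0.37 (SD, n = 10 spots), and all 10 spots were lower, from -0.92 to -0.17. So all 4 genes, which lie together in the MHC region of chromosome 17, were lower.

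Psmb9 and Tap1 are transcribed in opposite directions from 1 shared promoter, and their RefSeq windows overlap by 275 bases. The 225 bases between the starts are printed because one sequence serves 2 of the genes that were lower; neither ISRE nor GAS letters occur in their windows.

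Psmb9 and Tap1, chr17:34187331-34187555 (GRCm38.p6), plus strand: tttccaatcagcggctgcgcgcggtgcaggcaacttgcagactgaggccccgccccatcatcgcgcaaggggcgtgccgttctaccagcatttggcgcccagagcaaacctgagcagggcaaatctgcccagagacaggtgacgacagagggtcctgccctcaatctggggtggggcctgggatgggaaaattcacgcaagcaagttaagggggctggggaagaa

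Among the GTPases, which act on the vacuoles of intracellular pathogens, Gbp3 went from 0.92 to 0.12, a difference of -0.80. Igtp, also called Irgm3, was printed 10 times, with levels of 3.38 ± 0.05 and 2.85 ± 0.06 (SD, n = 10 spots), a difference of -0.53 ± 0.05. Unscaled, the Igtp spots ran from 2303 to 2628 and from 2046 to 2318, and all 10 scaled differences were below 0. Irgm1, a regulator of the other GTPases, had a difference of -0.44 with probes at -0.49 and -0.39. Iigp1 had a difference of -0.14, no larger than its error of 0.14, and Gbp2 was the only 1 of the 9 above 0, with levels of -0.28 and -0.20 and a difference of 0.07.

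The classes are set side by side next. The median was -0.19 for the 29 type I targets and -0.53 for the 9 interferon gamma targets, a gap of 0.34. The SD across genes was 0.68 and 0.32. Of the type I targets 5 lay below the whole range of the interferon gamma targets, 13 within it and 11 above it. All 5 genes at least 2-fold lower were type I targets, which make up 29 of the 38 genes. Of all genes 6.34% were that low, and Psmb9 among the interferon gamma targets fell just short at -0.99. The gap depended on the processing and was 0.13 when signals of at least 100 were required on both arrays, with the type I median then at -0.40. Outside the 38 the order was reversed in the main processing, with medians of -0.21 for 42 other type I targets and -0.11 for 20 other interferon gamma targets. The genes of a class are no replicates, so the gap between the 29 and the 9 genes has no test.

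**Figure D3:**
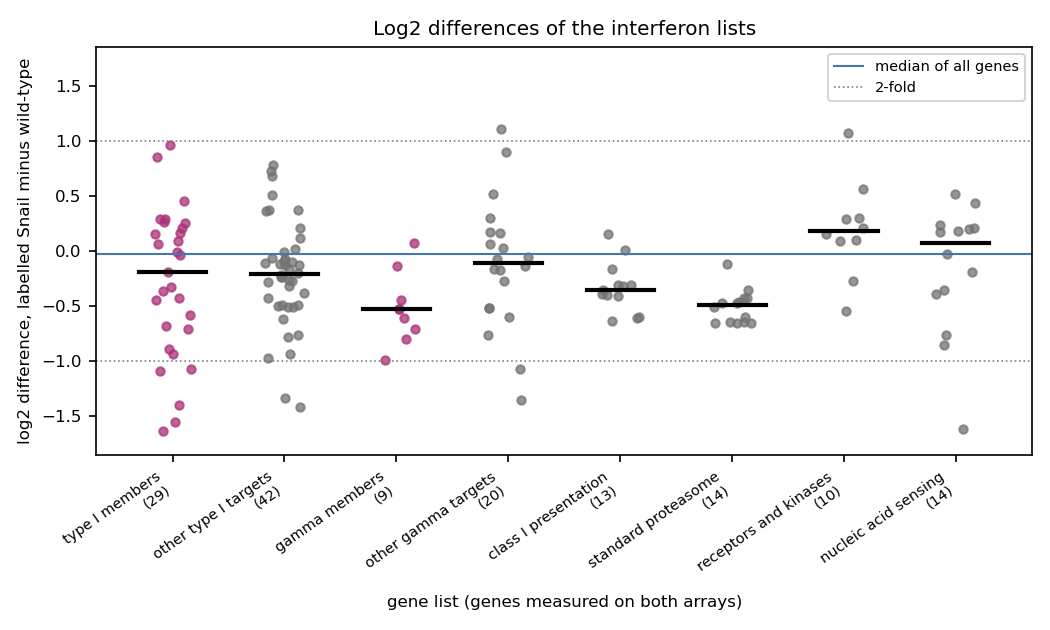
Log2 differences, labelled Snail minus wild-type, of single genes (points) with the median of each list (bar), the number of genes measured on both arrays, the median of all genes at -0.03 and the 2-fold lines. The type I points reach from -1.63 to 0.96, and the 9 interferon gamma points from -0.99 to 0.07.

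Ligands were hardly detectable. Of 19 interferon genes listed 15 had a probe, and 13 were below background on both arrays, among them Ifnb1 and Ifng. Ifna12 was well above background only in wild-type liver, with signals of 61.6 and 12.8, at least 6.20-fold lower in the library labelled Snail. Ifnl3 passed only in the latter, at 14.0 and 21.9. The receptors and their kinases were measured for 10 of 11 genes. Of these 8 were above 0, where 7337 of all 15466 genes were, and the median was 0.18. Only 1 gene was at least 2-fold higher, where 3.96% of all genes were. That gene was Il10rb, the chain shared by the interferon lambda and IL-10 receptors, at 71.8 and 196 and a difference of 1.07. Ifngr2, the signalling chain of the interferon gamma receptor, had a difference of 0.56, and the kinase Tyk2 one of 0.30.

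In the nucleic acid sensing list 1 of 14 genes was at least 2-fold lower and none higher, where 6.34% and 3.96% of all genes were. The list's median of 0.07 turned to -0.04 with normexp, -0.01 with the stricter filter and -0.18 with no filter. The lower gene was Irf5, a factor that drives inflammatory cytokines in myeloid cells, with signals of 263 and 112 and a difference of -1.61. Mavs, the mitochondrial adaptor of RIG-I and MDA5, had a difference of -0.85 and Tlr9 of -0.76, while the adaptor Myd88 had one of 0.52. Of 8 negative regulators none was at least 2-fold apart, where 10.3% of all genes were. Socs3, a brake on cytokine receptors, had a difference of 0.50.

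Further targets outside the 38 were counted in the same way, where 6.34% of all genes were at least 2-fold lower and 3.96% higher. At any size of difference, 52.6% of all genes were below 0. Of 42 other type I targets 2 were at least 2-fold lower and none higher, 32 were below 0 and the median was -0.21. The lower genes were Nmi, the N-myc interactor, with a difference of -1.41, and the ISG15 ligase gene Herc6, with -1.33; Oas1b had -0.97 and Ifitm1 -0.93. Of 20 other interferon gamma targets 2 were at least 2-fold lower, 1 was as far above, 12 were below 0, and the median was -0.11. Ifi47, an immunity-related GTPase, had -1.35 and Gbp7 -1.07. The chemokine gene Cxcl10, whose product draws T cells, had signals of 193 and 540, a difference of 1.11, and Cxcl9 had 0.90.

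The standard proteasome subunits were lower too, each by less than Psmb9 and Psmb8. The step from -0.65, the lowest standard value, to -0.71 for Psmb8 is inside the error of 0.20 of Psmb8. All 14 standard subunits measured were below 0, from -0.65 to -0.12, with a median of -0.49 and none 2-fold apart. Of all genes 52.6% were below 0, and of those with signals over 1000, 59.4%. Psmb6, which Psmb9 replaces, had -0.65, and Psmb5, which Psmb8 replaces, -0.51, beside -0.99 and -0.71 for the induced subunits. Psmb10, the other induced subunit, had -0.60, within the range of the standard subunits. Psmb5 and Psmb10 were named after their values were seen. In MHC class I presentation 11 of 13 genes were below 0, with a median of -0.35, and H2-Q4 and H2-Q7, nonclassical class I genes, had -0.63 and -0.61. The medians of the standard proteasome and of class I presentation were below 0 in all 8 settings.

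**Figure D4:**
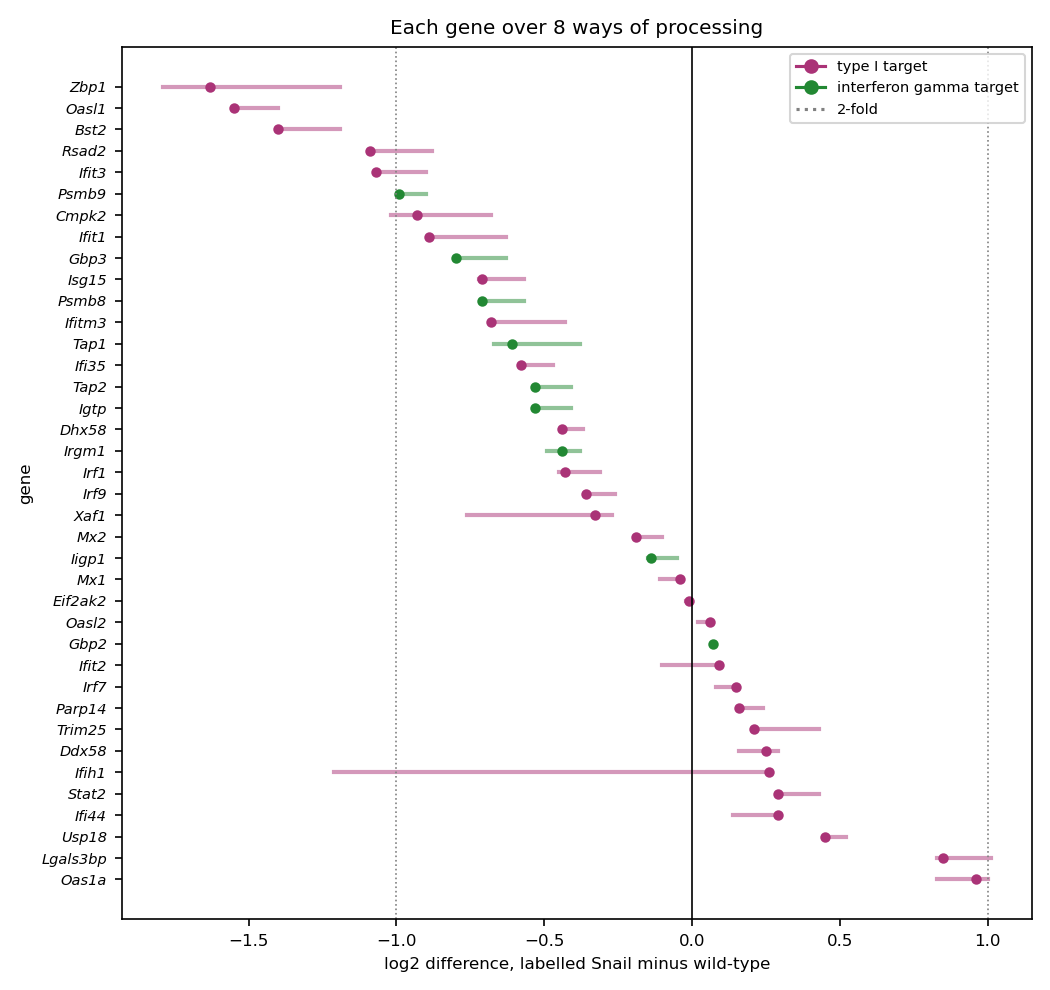
Log2 difference of each of the 38 genes, labelled Snail minus wild-type, as reported (point) and its range over 8 ways of processing (line), with the 2-fold lines. The lines of 25 genes lie wholly below 0 and those of 11 wholly above, and Ifih1 and Ifit2 cross it.

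Several cell types in liver answer to interferon, and in whole-organ RNA fewer cells of a type and less RNA per cell cannot be told apart. Of 10 Kupffer cell and macrophage markers 9 were above background on each array, with summed scaled signals of 91.4 (wild-type) and 114. Clec4f, which marks Kupffer cells, had a difference of 0.15. Of the 8 markers measured on both arrays 7 were above 0, and the median was 0.12. Only Marco was at least 2-fold apart, 2.83-fold higher at signals of 1049 and 3862. Clec4e passed background only in wild-type liver, at 60.2 and 9.52, at least 6.05-fold lower in the library labelled Snail. Cd68 passed only in the latter, at 8.14 and 17.8. Of 8 plasmacytoid dendritic cell markers, listed because Bst2 also marks those cells, 5 and 6 were above background, with sums of 67.5 and 112. The higher sum came with Ly6d, at signals of 105 and 15199. Siglech, the defining marker of the list, had signals of 12030 and 13851 and a difference of -0.17. Ccr9 and Cox6a2 passed background only with the Snail label, Klk1 only in wild-type liver, and Runx2 on neither array. Whether the Siglech probe reports those cells was not tested. T and NK cell markers summed to 29.1 and 8.63, with 6 of 9 above background on each array and Cd8a, Ncr1 and Klrb1c below it on both. The lower sum came with Zap70, a T cell receptor kinase, at signals of 3736 and 1102, and Cd4, at 822 and 415. Of the 6 markers measured on both arrays 3 were above 0, and the median was -0.01. Neutrophil markers were above background for 4 of 6 and 6 of 6, with sums of 75.2 and 79.9 in which Csf3r, at signals of 16984 and 22311, outweighs the rest. Their median difference was 1.24, with S100a8 at 1.99 and S100a9 at 1.57. B and plasma cell markers summed to 1.11 and 1.62. Sinusoidal endothelial markers summed to 44.3 and 41.5, with a median difference of 0.06. Among them Lyve1 was at 1.99, Pecam1 at 0.27, Oit3 at 0.09, Clec4g at 0.02, Kdr at -0.20 and Stab2 at -0.23. Hepatocyte markers summed to 2907 and 1873. All 7 were lower, where 52.6% of all genes were below 0, with a median difference of -0.69. The part of these cell types in the interferon values was not tested.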

How the data were processed

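Per the submitters' processing notes the scanner software was Agilent Feature Extraction 9.5.1.1. The authors deposited its output for each array, and the intensity values used are processed signals with spatial and multiplicative detrending switched on, per the file headers. The 2 arrays share a slide and a scan, and probe coordinates are on mm9, per the file headers. A second deposited file, a value table of 39429 probes, has unstated scale and centring. Its columns correlated at 1.00 in log2 with the scanner intensity of their own array, had medians of 17.3 and differed by at most 0.108 once sorted.

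Computed here was log2 of the processed signal less the 75th percentile of its array (232.7 for wild-type, 302.1 for the other), without controls and 287 outlier spots; no saturation was recorded. Values were averaged over spots, then over a gene's probes that passed background on both. A gene that passed on 1 array has a bound: the bright signal over the higher of the detection limit (13.8 and 12.9) and the dim probe's own signal. RefSeq named 66.1% of probes by accession, and the files named the rest. With 1 array per group no test was run, and precision is limited by the number of arrays. Technical spread came from 239 probes with at least 5 spots. The calculations were tested on simulated data.

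Alternatives were normexp (limma 3.58.1, offset 50), quantile normalization, median scaling, the value table, a signal of at least 100 on both arrays, no filter, the brightest probe, and other divisions of the classes. The 38 genes, lists and motifs were chosen with earlier results of these data known. Named are the 38 genes, up to 4 genes by size of difference or with a bound in each other list, and markers; other names are stated as such. One gene is not reported here.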

Additional observations from a re-analysis of the deposited data

How the results depend on the processing

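Of the 38 genes, 25 were below 0 and 11 above 0 in the main processing and every one of the 7 other settings that gave a value, and 2 changed sign. Ifih1 was 0.26 as reported, -0.35 with normexp and -1.21 with the stricter filter or by its brighter probe, and Ifit2 was 0.09 and -0.10 with normexp. The median of the 38 genes was -0.40, then -0.29 with quantile normalization and -0.30 from the value table. That of type I targets was -0.19, and -0.40 under the stricter filter and -0.33 by the brightest probe; that of interferon gamma targets was -0.53, and -0.43 with normexp, -0.41 under quantile normalization and -0.42 in the value table. The gap between them was 0.34, and 0.17 with normexp, 0.22 under quantile normalization, 0.24 in the value table, 0.13 under the stricter filter and 0.20 by the brightest probe. Genes of the list at least 2-fold lower numbered 5, and 3 with normexp (Bst2, Oasl1 and Zbp1); the stricter filter and the brightest probe each gave 7, adding Cmpk2 and Ifih1. At least 2-fold higher were 0, and 1 under quantile normalization or in the value table. Of all genes 980 were lower and 613 higher, and with normexp 572 and 297, with the stricter filter, which leaves 10354 genes and 34 of the 38, 605 and 262. Those lower were 6.34% of all genes, and 3.70% with normexp, 5.84% with the stricter filter and 6.56% by the brightest probe. When no filter was set, the median of all genes was -0.47, and that of the 38 genes, -0.44, was then 0.03 above it. By construction that setting raises dim signals to a floor, at -4.07 and -4.55 after scaling, and 43.5% of spots lay at it on both arrays with a difference of -0.47. Of other lists, nucleic acid sensing turned to -0.04 (normexp), -0.01 (stricter filter) and -0.18 (no filter), negative regulators from 0.13 to -0.01 and sinusoidal endothelial markers from 0.06 to -0.09 with the stricter filter, and plasmacytoid dendritic cell markers from 0.14 to -0.21 without any. Other causes were not tested. No paired analysis was possible because each genotype has 1 array. Signals under 100, with 3 of the 38 genes, have the widest technical spread.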

Other observations

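Among targets seen on 1 array only, Ubd, which encodes the ubiquitin-like modifier FAT10, had signals of 3.82 in wild-type and 86.4 with the Snail label, at least 4.82-fold higher in the latter. Slfn5 and Epsti1 likewise passed background there alone, at least 1.49-fold and 1.12-fold higher.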
